A study of Mus musculus with 16 samples.

Results

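Leukemia stem cells (LSCs) from mice with chronic myeloid leukemia (CML) that had received vehicle (Veh) gave 3 libraries, and the transcriptome of these 3 of the 16 samples in the series is described here on its own. The libraries were chosen by their titles. They came from C57BL/6 mice of genotype BL/6 (WT), labelled post natal week 8. LSK cells, the lineage-negative, Sca-1-positive, Kit-positive fraction of marrow, had been transduced 2 times with BCR-ABL1-GFP and given intravenously to syngeneic BL/6 recipients without irradiation, so the hosts kept their own blood-forming cells. Vehicle was given once CML had developed, and LSCs were then sorted from bone marrow. Their source field names LSK cells instead, and the name in the titles is used here. It is not stated whether each library came from its own animal.

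BCR-ABL1 is the fusion tyrosine kinase that drives CML, a disease in which a transformed stem cell floods blood and marrow with granulocytes. Leukemia stem cells keep the disease going, since they renew themselves and give rise to the bulk of leukemic cells. Normal stem cells and their first progeny carry transcripts of several lineages at low level before they commit, which is known as lineage priming.

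Values are in RPKM, reads per kilobase of feature per 1000000 mapped reads, and are given for libraries 1, 2 and 3 in this order. A level of 1 RPKM in all 3 libraries was used as the threshold for detected expression, and 0.001 was the lowest value of the table. Of 36930 features, 12545 (34.0%) reached 1 RPKM in all 3 libraries, 7561 (20.5%) reached 10 and 1080 (2.92%) reached 100. The lowest value stood in all 3 libraries for 14481 features (39.2%). Among 21030 protein-coding features these shares were 51.0% at 1 RPKM, 34.0% at 10 RPKM and 28.1% at the lowest value. Counts of list members below are to be read beside these shares. In a bulk sample fewer cells of a type and less RNA per cell cannot be told apart.

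The depth could be read from features of microRNA genes, short regulatory RNAs whose values fell on whole multiples of the value of 1 read. With the length of the first mature arm in RefSeq (GRCm38.p6), 76.1%, 67.9% and 72.8% of their values came within 0.05 of a whole number of reads at depths of 12.8 M, 18.6 M and 16.5 M counted reads (M, 1000000). At the median of all other depths tried that share was 5.47%, 6.22% and 6.10%. A single read on 22 bases was thus worth 3.56, 2.44 and 2.75 RPKM. The step used 201, 193 and 213 microRNA values. The 3 sequences below are examples of the arm whose length was used, each the 3p arm of its gene, with bases 2 to 8, the seed that pairs with targets, in capitals. They hold 3 different seeds.
mmu-miR-93-3p: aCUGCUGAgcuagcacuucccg
mmu-miR-150-3p: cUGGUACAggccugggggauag
mmu-let-7d-3p: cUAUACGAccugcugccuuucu
These arms lie at chr5:138165536-138165557 (minus strand), chr7:45121798-45121819 (plus) and chr13:48536024-48536045 (minus). The values belong to the gene features, and the table does not say which arm was counted. The feature Mir93 measured 7.11, 31.6 and 5.50 RPKM, which is 2, 13 and 2 reads. Mir150 measured 28.4, 17.1 and 5.50 RPKM, or 8, 7 and 2 reads. Mirlet7d measured 14.2, 31.7 and 2.75 RPKM, or 4, 13 and 1 reads. These 3 features therefore rest on 1 to 13 reads in each library, while Mir682, the highest microRNA feature, rests on 781, 1189 and 872. For a gene of 1 kb at the lowest value, 3 counts allow a level of up to 0.235, 0.161 and 0.182 RPKM. These limits cover counting error only.

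Kit, Mpo and Meis1, the markers given for these cells, were all well above the threshold. Kit, the receptor for stem cell factor (chr5:75574916-75656722, plus strand), measured 68.4, 75.8 and 77.5 RPKM, 73.9 ± 4.80 (mean ± SD, n = 3). Mpo, the myeloperoxidase of neutrophil primary granules (chr11:87793581-87804413, plus strand), measured 1929, 2049.9 and 1916, with a mean of 1965 ± 73.9. Meis1, a homeobox partner of Hox proteins in stem cells (chr11:18879817-19018985, minus strand), measured 44.1, 50.8 and 51.6, with a mean of 48.8 ± 4.09. The 3 libraries lay close together for each of these genes.

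Among the sorting and lineage markers 15 of 19 reached 1 RPKM in all 3 libraries. Ly6a, which encodes Sca-1, measured 17.8, 14.6 and 23.9 RPKM and was thus highest in library 3. Cd34, a sialomucin of progenitor cells, measured 138, 138 and 120.1. Cd48, a SLAM family receptor found mainly on progenitors past the stem cell stage, measured 91.4, 106 and 103, while Slamf1, the SLAM receptor CD150 of long-term stem cells, measured 8.55, 11.7 and 8.80. Both SLAM genes were detected in every library, with Cd48 about an order of magnitude above Slamf1. Flt3, the receptor of multipotent and lymphoid-primed progenitors, measured 20.97, 20.1 and 20.1, and Cd93, a C-type lectin-like receptor of stem, myeloid and endothelial cells, measured 19.7, 24.9 and 24.4. Ptprc, the pan-leukocyte antigen CD45, measured 48.5, 46.2 and 51.3. The mature lineage antigens differed among themselves. Cd3e of T cells and Ly6g of neutrophils stood at the lowest value in all 3 libraries. Cd8a measured 0.001, 0.072 and 0.258 and Cd4 1.25, 1.80 and 1.26. Itgam, the myeloid integrin CD11b, measured 3.76, 4.09 and 4.04. Ly6e measured 384, 408 and 379, Il7r of lymphoid progenitors 2.27, 2.53 and 2.63, and Ly6c1 and Ly6c2 41.1, 46.6 and 34.9 and 34.4, 37.04 and 32.3, although the last pair are near-identical genes whose reads may be split.

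**Figure D1:**
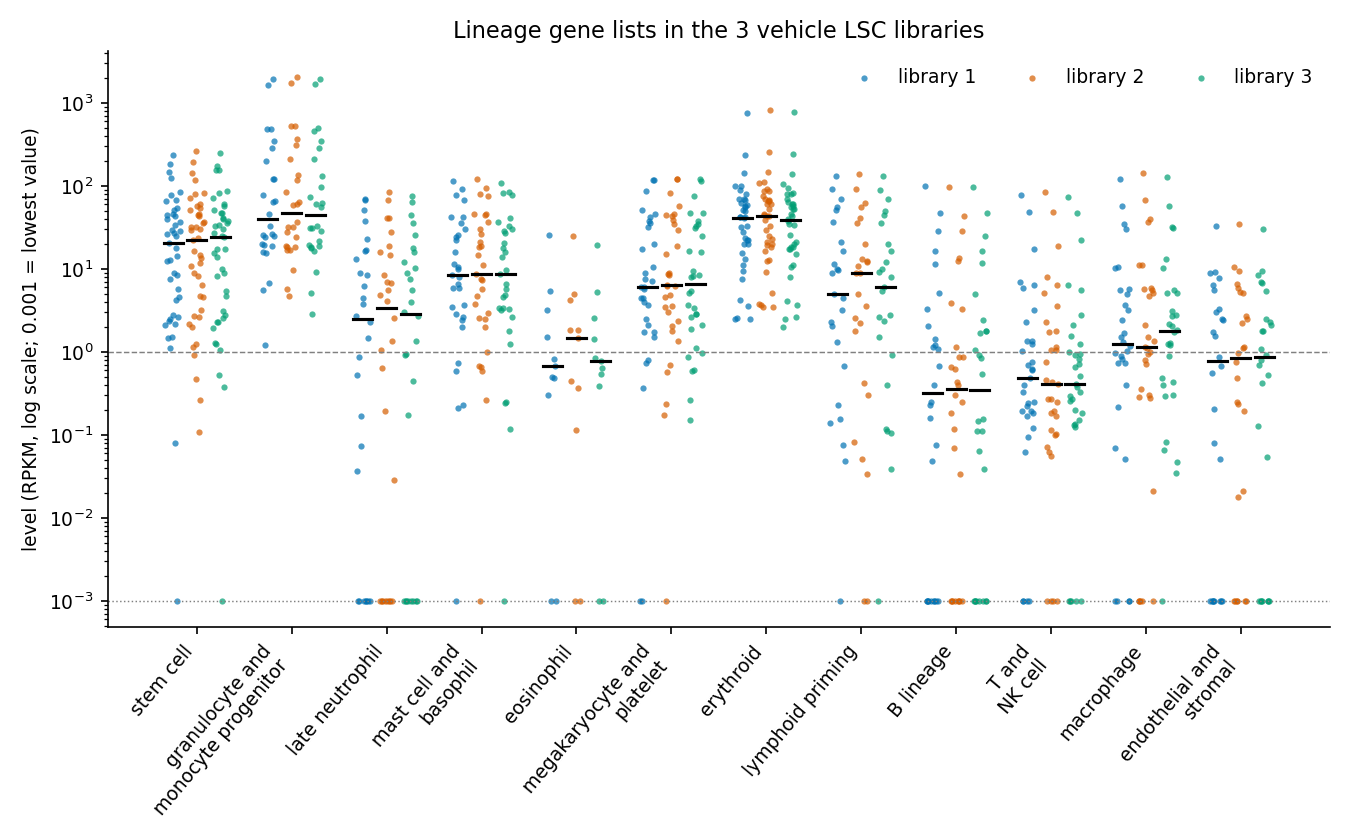
Each point is a gene of 1 list in 1 library (x axis, 12 gene lists with libraries 1 to 3 side by side; y axis, RPKM on a log scale), black bars are medians over members, the dashed line marks 1 RPKM and the dotted line the lowest value of 0.001. Granulocyte-monocyte progenitor and erythroid genes had the highest medians over members of the mean level (43.7 and 42.0 RPKM), and B lineage and T and NK cell genes the lowest (0.436 and 0.435).

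Of 43 stem cell genes, 39 reached 1 RPKM in all 3 libraries, 26 reached 10, and none was at the lowest value in all 3. The median of their mean levels was 19.9 RPKM. The highest were Ctla2a, a cathepsin inhibitor used as a stem cell signature gene (234, 263 and 249.8), Lmo2, a bridging factor of stem cell transcription complexes (181, 196 and 175), Egr1, an immediate-early zinc finger factor (147, 142 and 154), and Msi2, an RNA-binding protein of stem cells (123, 119 and 156). Etv6, an Ets family repressor, measured 83.3, 82.1 and 87.9, Gata2, a zinc finger factor of stem and mast cells, 76.6, 80.1 and 81.5, and Angpt1, the ligand of the Tie2 receptor, 66.01, 71.8 and 70.9. Txnip, an inhibitor of thioredoxin, measured 66.9, 60.9 and 61.3. Each of these stood well above the median of the list.
Several genes tied to the long-term stem cell were at or below the median of the list. Hlf, a PAR bZIP factor, measured 20.3, 22.3 and 17.2 and Mecom, the zinc finger factor Evi1, 8.99, 8.30 and 10.1. Procr, the endothelial protein C receptor EPCR, measured 2.64, 3.20 and 2.75, Fgd5 2.16, 2.64 and 2.60, Tek, the Tie2 receptor, 2.50, 2.69 and 2.30, and Prdm16 2.09, 2.15 and 1.93. Of these genes Hlf alone lay at about the median of the list, and the others stayed below 11 RPKM in each library. Hoxb5, a homeobox gene of long-term stem cells, measured 0.001, 0.265 and 0.374, and Ndn, the growth suppressor necdin, 0.08, 0.110 and 0.001, so both were under 1 RPKM throughout. Cdkn1c, the cell cycle inhibitor p57, measured 1.12, 0.926 and 2.31, with library 2 just under the threshold. Among the Hox clusters, 4 of 11 Hoxa genes, 1 of 10 Hoxb genes and 0 of 9 in each of Hoxc and Hoxd reached 1 RPKM in all 3 libraries. Hoxa9 was the highest at 12.5, 10.9 and 15.7, followed by Hoxa7 at 6.44, 8.92 and 8.37, and 8 of 9 Hoxd genes stood at the lowest value in all 3 libraries.

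All 26 granulocyte and monocyte progenitor genes that the table lists reached 1 RPKM in all 3 libraries, and 23 reached 10. Their median of means was 43.7 RPKM. Calr, the endoplasmic reticulum chaperone calreticulin, measured 1635, 1752 and 1679, and Srgn, the granule proteoglycan serglycin, 480.0, 522 and 496. The serine proteases of the primary granule followed, with Elane (neutrophil elastase, chr10:79886247-79888215, plus strand) at 480.3, 524 and 463, Ctsg (cathepsin G) at 347, 367 and 346 and Prtn3 (proteinase 3) at 283, 309 and 284. Mpo, Elane, Prtn3 and Ctsg together made up 0.362%, 0.371% and 0.363% of the column total. The granule genes of the promyelocyte stage were thus present at nearly the same share in each library. Igfbp4, an insulin-like growth factor binding protein, measured 197, 211 and 209, and Rgcc 121, 134 and 130.3. Of the factors that direct this lineage, Cebpa measured 24.2, 31.5 and 30.96, Irf8, which favours monocytes, 32.7, 31.5 and 33.3, Gfi1 15.5, 17.1 and 16.5, and Cebpe, needed for secondary granules, 6.84, 9.65 and 9.16. Azu1 was not matched to a feature.

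Late neutrophil genes were lower and uneven. Of 28, 16 (57.1%) reached 1 RPKM in all 3 libraries, near the 51.0% of protein-coding features. Of the same 28, 8 reached 10 and 5 were at the lowest value in all 3, with a median of means of 3.05 RPKM. S100a8 and S100a9, the calprotectin subunits that fill mature neutrophils, measured 69.8, 83.6 and 63.2 and 68.4, 67.7 and 76.5, together 0.0165%, 0.0173% and 0.0169% of the column total. Ngp, a neutrophil granule protein, measured 22.8, 27.8 and 25.9, Lcn2, lipocalin 2, 13.1, 16.04 and 11.9, Camp, the cathelicidin of secondary granules, 8.44, 6.73 and 10.3, and Ltf, lactoferrin, 2.32, 2.58 and 2.74. The oxidase subunit Ncf1 measured 38.2, 40.6 and 35.98 and Padi4, which citrullinates histones, 16.9, 14.5 and 15.8. Other members were under 1 RPKM. Mmp8, the neutrophil collagenase, measured 0.168, 0.192 and 0.173, Mmp9 0.037, 0.001 and 0.001 and Cxcr2, a chemokine receptor, 0.869, 0.647 and 0.953. Retnlg, Ly6g, Stfa1, Stfa2 and Stfa3 stood at the lowest value in all 3 libraries, and the Stfa genes are close copies whose reads may be lost or split.

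Mast cell and basophil genes were expressed at 26 of 31, with 14 at 10 RPKM or more and a median of means of 8.54 RPKM. Cpa3, the mast cell carboxypeptidase (chr3:20215620-20242181, minus strand), measured 115, 119 and 107, and Cma1, a mast cell chymase, 91.5, 94.1 and 83.7. The granzyme Gzmb measured 42.6, 46.1 and 40.5, Tpsb2, a mast cell tryptase, 42.6, 46.01 and 36.5, and Fcer1g, the shared Fc receptor gamma chain, 35.7, 44.7 and 32.5. Mcpt8, a protease of basophils, measured 25.4, 26.1 and 26.9, and Hdc, which makes histamine, 22.2, 21.1 and 20.7. The alpha and beta chains of the IgE receptor were below its gamma chain, with Fcer1a at 9.87, 7.42 and 5.79 and Ms4a2 at 5.82, 4.75 and 3.20. Alox5, the 5-lipoxygenase of leukotriene synthesis, measured 29.98, 36.5 and 29.9, while Mitf, a mast cell regulator, measured 3.65, 2.96 and 2.66. The proteases Mcpt1 and Mcpt2 measured 0.211, 0.653 and 0.245 and 0.745, 0.585 and 0.247, and Cma2 stood at the lowest value. Of 11 eosinophil genes 4 (36.4%) reached 1 RPKM, against 34.0% of all features and 51.0% of protein-coding features. They were led by Prg2, the major basic protein (25.7, 24.7 and 19.5), and Epx, the peroxidase (5.35, 4.92 and 5.24). The receptors Il5ra and Ccr3 were at the lowest value in all 3 libraries.

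Megakaryocyte and platelet genes reached 1 RPKM at 24 of 32, with 12 at 10 or more and a median of means of 6.55 RPKM. The highest member was Bin2, a BAR domain adaptor, at 119, 122 and 122. Among regulators Zfpm1, the GATA1 cofactor FOG1, stood at 117, 122 and 116, Nfe2, a bZIP factor of platelet release, at 85.9, 82.6 and 75.3, Gfi1b at 45.4, 56.9 and 47.4, Fli1 at 50.9, 44.9 and 46.8 and Gata1 at 42.6, 45.6 and 37.5. Pf4, platelet factor 4, measured 31.98, 43.8 and 31.04, and Itga2b, integrin alpha IIb, 35.8, 34.4 and 34.9, with Plek, pleckstrin, at 38.04, 38.5 and 33.3. Vwf measured 5.72, 6.39 and 5.45, Gp9 4.004, 3.03 and 0.597, Tubb1, the platelet beta-tubulin, 0.808, 2.06 and 1.12, and Gp6, the collagen receptor, 0.001, 0.001 and 0.150. Gp9 was thus below 1 RPKM in library 3 only.

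All 38 erythroid genes that the table lists reached 1 RPKM in all 3 libraries, 31 reached 10, and the median of means was 42.0 RPKM. Car2, carbonic anhydrase 2 (chr3:14886273-14900770, plus strand), measured 760.0, 829.8 and 773, and Tfrc, the transferrin receptor that also rises in dividing cells, 232, 254 and 239. Blvrb, a biliverdin reductase, measured 142, 145 and 138, Ermap 99.4, 108 and 106 and Car1 99.6, 111 and 94.98. Klf1, the master regulator of globin genes (chr8:84901928-84905291, plus strand), measured 58.5, 60.7 and 53.2, and Epor, the erythropoietin receptor, 28.03, 29.3 and 25.5. Heme synthesis genes were represented by Urod at 70.1, 90.8 and 79.9, Alad at 56.3, 64.98 and 51.95 and Fech at 51.8, 59.8 and 55.3. The globins Hbb-bt, Hbb-bs, Hba-a1 and Hba-a2 measured 80.9, 87.4 and 81.4, 70.1, 75.3 and 70.4, 57.6, 66.8 and 60.4 and 32.1, 38.7 and 34.9, and as near-identical pairs their reads may be split. Alas2, the erythroid aminolevulinate synthase that starts heme synthesis, measured 4.21, 3.47 and 4.12, and Slc4a1, the band 3 anion exchanger, 2.58, 3.64 and 2.47, both far below the median of the list. Hbb-b1, Hbb-b2 and Ahsp were not matched to a feature.

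As a list, lymphoid priming genes stood higher than genes of committed lymphoid cells. Of its high members, Ikzf1, Tcf3 and Bcl11a are also on the list of hematopoietic transcription factors below. Of 25 lymphoid priming genes 18 reached 1 RPKM in all 3 libraries, with a median of means of 8.13 RPKM. Ikzf1, the factor Ikaros, measured 133, 138 and 133, Tcf3, the E protein E2A, 91.7, 91.2 and 89.1, Bcl11a 69.4, 61.6 and 68.98 and Tcf12 55.6, 54.9 and 49.8. Dntt, the terminal transferase of early lymphoid cells, measured 16.3, 12.5 and 16.6, Satb1 11.3, 10.7 and 10.1 and Notch1 8.96, 8.92 and 9.13. The recombinase genes were under 1 RPKM, with Rag1 at 0.075, 0.034 and 0.039 and Rag2 at 0.049, 0.305 and 0.917.
Of 28 B lineage genes 8 (28.6%) reached 1 RPKM in all 3 libraries and the median of means was 0.436 RPKM. That share was 34.0% over all features and 51.0% over protein-coding features. Xbp1, a stress response factor that plasma cells and other secretory cells use, measured 101, 98.2 and 96.3, Igkc, the kappa constant region, 47.4, 42.98 and 46.9, Ighm, the mu heavy chain, 28.8, 28.6 and 25.2, and Cd72 11.3, 13.5 and 11.6. Cd79b, a signalling chain of the B cell receptor, measured 5.12, 3.29 and 1.76, while its partner Cd79a measured 0.001, 0.405 and 0.548. Pax5, the master regulator of B cells, stood at the lowest value in all 3 libraries, as did Ms4a1 (CD20), Igll1, Vpreb2, Vpreb3 and Iglc1. The variable segments were also mostly empty, with 85 of 120 Ighv and 89 of 102 Igkv features at the lowest value in all 3. Igkv12-46 was the highest of the segments at 15.3, 20.6 and 22.7.
Of 33 T and NK cell genes 10 (30.3%) reached 1 RPKM and the median of means was 0.435 RPKM. This share too was near the 34.0% of all features and below the 51.0% of protein-coding features. Nkg7, a granule membrane protein also listed with the granulocyte progenitors, measured 78.1, 83.6 and 72.6, Lat, an adaptor that mast cells and platelets also use, 47.9, 48.9 and 47.4, and Thy1 17.4, 18.7 and 22.04. Lck, the T cell kinase, measured 6.46, 6.46 and 5.62, and Tcf7 7.003, 5.12 and 6.37. The CD3 genes were under 1 RPKM, since Cd3e and Cd3g stood at the lowest value in all 3 libraries and Cd3d measured 0.396, 0.272 and 0.001. Trbv13-2, a T cell receptor beta segment, measured 6.44, 9.96 and 7.66.

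Markers of other cells that marrow could contribute differed between lists. Of 30 macrophage genes 14 (46.7%) reached 1 RPKM in all 3 libraries with a median of means of 1.35 RPKM, and of 26 endothelial and stromal genes 10 (38.5%) did, with 0.881 RPKM, against 51.0% and 1.71 RPKM for all protein-coding features. The highest macrophage members, Ctsd and Ctsb, are lysosomal proteases of most cells (123, 143 and 129.6 and 57.8, 67.3 and 57.6), while Adgre1, the F4/80 antigen, measured 0.819, 0.724 and 1.22 and Marco was at the lowest value. Apoe, an apolipoprotein, measured 29.8, 39.8 and 31.4. The endothelial and stromal members were uneven. Pecam1 was the highest of them, with a mean of 32.6 RPKM, and the collagen gene Col3a1 also reached 1 RPKM in all 3 libraries. Cdh5, the VE-cadherin of endothelium, measured 0.565, 0.753 and 0.694, and Lum, Bglap, Adipoq and Alb stood at the lowest value in all 3 libraries. Dendritic cell and MHC class II genes lay above that background, with 18 of 22 (81.8%) at 1 RPKM and a median of means of 9.03 RPKM, led by Cd74, the invariant chain (55.6, 54.9 and 48.9), Bst2 (38.9, 38.1 and 35) and H2-Ab1 (32.6, 39.1 and 36.4), while Xcr1 of conventional dendritic cells measured 0.001, 0.053 and 0.001. The part of such cells in the levels of shared genes was not tested.

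**Figure D2:**
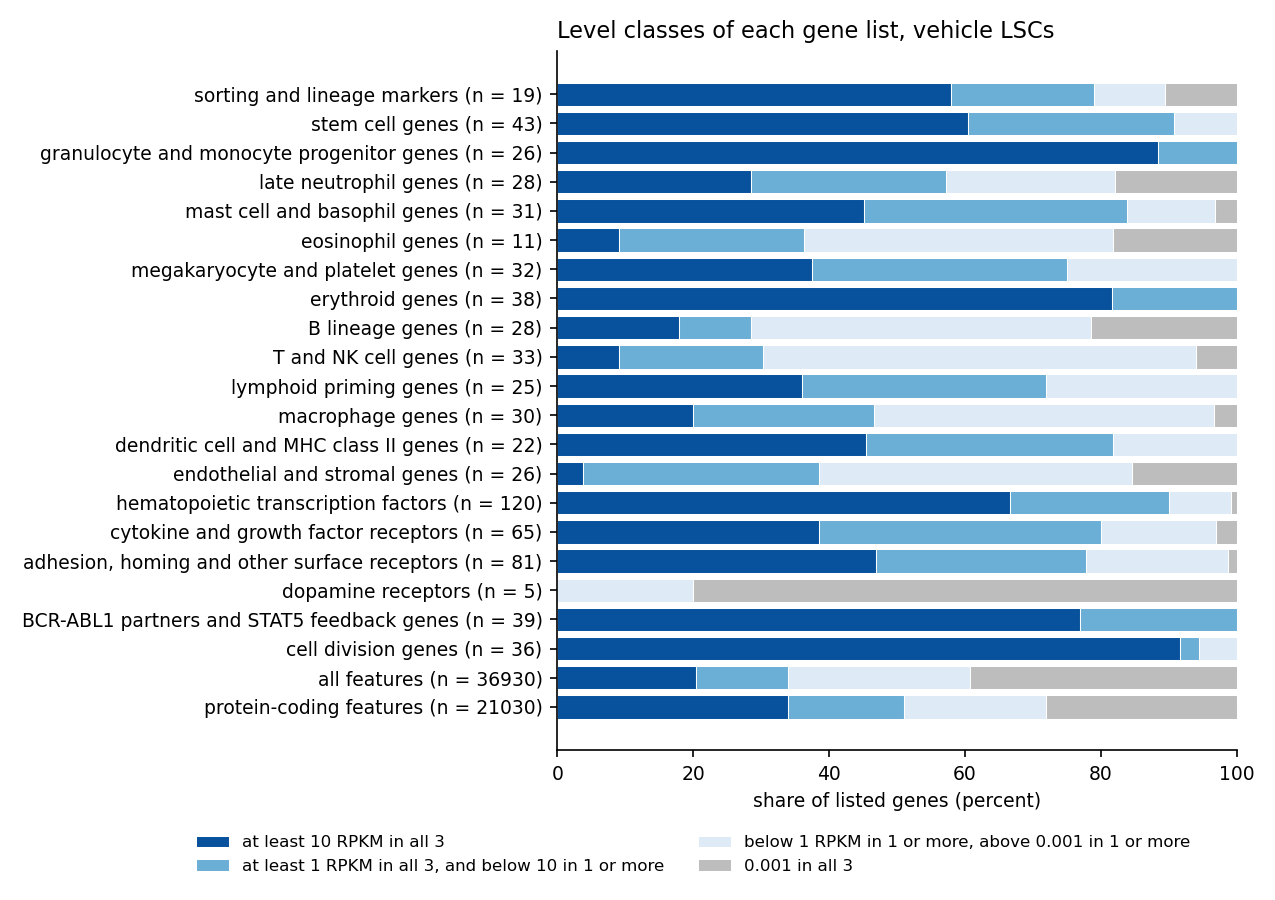
Stacked bars give the share of listed genes (x axis, percent) in 4 level classes for 20 gene lists, all features and protein-coding features (y axis, n = genes listed in the table). All listed granulocyte-monocyte progenitor, erythroid and BCR-ABL1 or STAT5 genes lie in the blue classes of at least 1 RPKM in all 3 libraries, against 51.0% of protein-coding features.

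Of 120 hematopoietic transcription factors 108 reached 1 RPKM in all 3 libraries and 80 reached 10, with a median of means of 27.1 RPKM. The AP-1 genes, which respond to stimuli within minutes, were among the highest. Jun (chr4:95049034-95052222, minus strand) measured 587, 585 and 621, Fos 365, 365 and 372, Fosb 302, 268 and 338 and Jund 244, 252 and 258. Myb, a factor of immature blood cells (chr10:21124935-21160984, minus strand), measured 451, 478 and 459, Myc 203, 211 and 196, and Atf4, a stress response factor, 224, 252 and 225. Ldb1, the partner of Lmo2, measured 179, 186 and 201. Lineage regulators that oppose each other in textbook models were detected in the same libraries. Bulk libraries cannot show whether the same cells carried them. Spi1, the myeloid factor PU.1, measured 49.2, 51.5 and 46.2 beside Gata1 at 42.6, 45.6 and 37.5, and Runx1 measured 53.6, 53.8 and 57.4. Only Pax5 of the 120 stood at the lowest value in all 3 libraries, and Ebf1, another B cell factor, measured 0.001, 0.001 and 0.112.

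Of 65 cytokine and growth factor receptors 52 reached 1 RPKM in all 3 libraries and 25 reached 10, with a median of means of 6.09 RPKM. Ifngr1, an interferon gamma receptor chain, measured 102, 107 and 99.5, and Ifnar2 of the type I interferon receptor 57.7, 63.1 and 56.9. Il2rg, the common gamma chain, measured 37.3, 40.7 and 40.5, Il17ra 33.98, 32.2 and 36.4, Igf1r 33.1, 30.3 and 36.1, and Csf2rb, the beta chain shared by the receptors for IL-3, IL-5 and GM-CSF and a close copy of Csf2rb2, 27.1, 31.5 and 29.2. Il1rl1, the IL-33 receptor, measured 24.4, 30.1 and 28.8. The receptors of lineage growth factors stood in the order Kit, Epor, Flt3, Csf3r and Csf1r by mean level, with Csf3r at 15.98, 18.5 and 17.9 and Csf1r at 5.55, 5.78 and 5.08. No neighbours in this order overlapped in their ranges. Il1rap, a co-receptor studied on CML stem cells, measured 3.89, 2.52 and 5.80, and Il3ra 9.38, 6.05 and 9.71. Il5ra and Cd70 stood at the lowest value in all 3 libraries, and Lepr, the leptin receptor, measured 0.081, 0.018 and 0.001.

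Among 81 adhesion, homing and other surface receptors 63 reached 1 RPKM in all 3 libraries and 38 reached 10. Cd47, the signal that restrains phagocytosis, measured 218, 228 and 223, and the integrin chains Itga4 and Itgb1, which form VLA-4, 137, 134 and 141 and 102, 103 and 98.3. Cd81 measured 110.1, 106 and 111, Emb 109, 99.7 and 107 and Cd44, a hyaluronan receptor, 75.7, 81.99 and 73.5. Selplg, the selectin ligand PSGL-1, measured 64.2, 70.4 and 62.98, and Cxcr4, the receptor for the niche chemokine CXCL12, 31.1, 28.5 and 26.02. Cxcl12 itself measured 0.001, 0.001 and 0.810. Cd33 and Cd38, surface markers of human myeloid cells, measured 1.03, 1.06 and 1.55 and 0.684, 0.411 and 0.860. Clec14a, a relative of Cd93, stood at the lowest value in all 3 libraries, and another relative, Cd248, measured 2.38, 2.83 and 2.08. Dopamine receptor genes were at the floor, with Drd2, Drd3, Drd4 and Drd5 at the lowest value in all 3 libraries and Drd1 at 0.058, 0.001 and 0.001.

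All 39 genes of BCR-ABL1 partners and STAT5 feedback reached 1 RPKM in all 3 libraries, 30 reached 10, and the median of means was 33.5 RPKM. The fusion and its GFP tag have no feature of their own in the table. Bcr and Abl1, the mouse genes, measured 64.2, 61.9 and 68.8 and 67.9, 50.1 and 69, and whether reads of the transgene count towards them was not tested. Of the adaptors Grb2 measured 84.3, 83.9 and 78.4 and Crkl 28.9, 25.5 and 29.7, and of the kinases Jak1 measured 101, 102 and 99.4 and Jak2 40.8, 49.7 and 60.4. Stat5a and Stat5b measured 39.8, 43.2 and 39.95 and 42.9, 43.99 and 45.1. The STAT5 targets Pim1, a survival kinase, Cish and Socs2, both feedback inhibitors, measured 119.8, 131 and 132, 41.7, 42.6 and 41.8 and 22.04, 23.9 and 20.6. Osm, the cytokine oncostatin M, measured 22.6, 24.2 and 23.7, and Ccnd2, cyclin D2, 78.7, 85.3 and 77.2. Of the survival genes Mcl1 measured 79.6, 87.97 and 97.7, Bcl2l1 7.27, 7.34 and 6.51 and Bcl2 4.58, 4.92 and 5.49, so Mcl1 was the highest of these in every library.

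Cell division genes had the highest median of the lists other than housekeeping and mitochondrially encoded genes, 82.5 RPKM, with 34 of 36 at 1 RPKM in all 3 libraries and 33 at 10. Mki67, the proliferation antigen Ki-67, measured 283, 289.7 and 299, Mcm6, a helicase subunit, 269.8, 294 and 273, and Top2a, a topoisomerase, 229, 239 and 237. Cdk6 and Cdk4, kinases of the G1 phase, measured 207, 204 and 218 and 207, 221 and 193, and Ube2c, which acts in mitosis, 198, 227 and 195. The cycle inhibitors Cdkn1b, Cdkn1a and Cdkn2c measured 39.6, 37.2 and 45.8, 12.9, 12.5 and 16.9 and 2.62, 5.41 and 3.82. Histone genes of the replication-dependent class, whose transcripts accumulate in S phase, were detected at 69 of 69 and made up 3.56%, 3.83% and 3.57% of the column total. Hist1h1c was the highest at 1515, 1711 and 1509.9, and members of this family are close copies.

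The most abundant protein-coding genes outside ribosomal, elongation factor and mitochondrial genes included Mpo of the granulocyte and monocyte progenitor list beside genes of general function. Calr, also on that list, is a chaperone and is not particular to this lineage. Hsp90ab1, a chaperone, measured 2442, 2640.3 and 2424, Actb 2389, 2607 and 2357, and Ncl, the nucleolar protein nucleolin, 2334, 2557 and 2436. Atpif1, an inhibitor of the mitochondrial ATP synthase, measured 1613, 1772 and 1634, B2m of MHC class I 1569.9, 1642 and 1511, and Gnb2l1, the ribosomal scaffold RACK1, 1417, 1536 and 1380.3. Serbp1 measured 1232, 1352 and 1271, Hspa8 1228, 1281 and 1201 and Anp32b 1083, 1227 and 1102. Several non-coding RNAs stood above all of these. Rpph1, the RNA of RNase P, measured 30452, 33915 and 29756, Rn7sk, which holds back transcription elongation, 20197, 22641 and 21340.4, and Rn7s1 and Rn7s2 of the signal recognition particle, which are near-identical copies, 21340.0, 25097 and 20911 and 19360.1, 22816 and 19066. With Rmrp (3993, 5039.9 and 3712) these 5 RNAs made up 11.4%, 12.5% and 11.4% of the column total. The mitochondrial ribosomal RNAs Rnr1 and Rnr2 made up 15.7%, 11.3% and 14.0%, and were lowest in library 2. Cytosolic ribosomal protein genes took 4.63%, 4.80% and 4.58%, and the 13 mitochondrial mRNAs 3.11%, 3.12% and 3.28%.

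**Figure D3:**
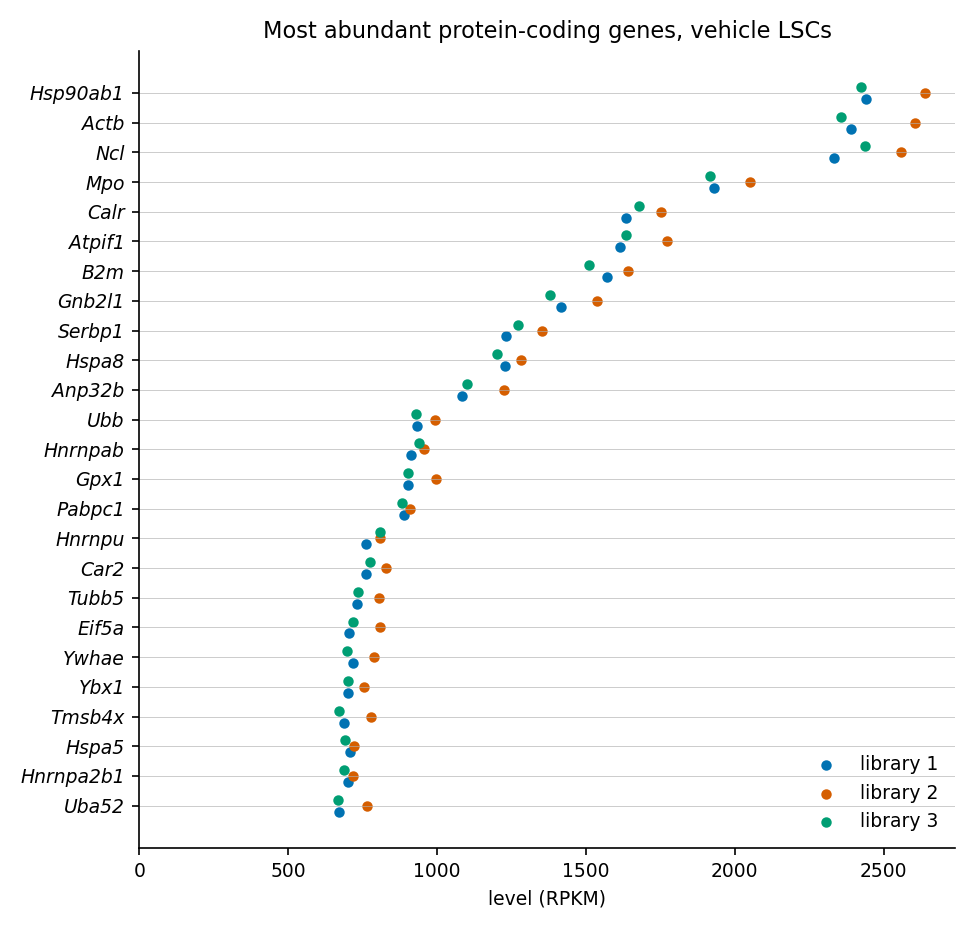
The 25 protein-coding genes with the highest mean, without mitochondrial, ribosomal protein, elongation factor and histone genes, are shown by level in RPKM (x axis, linear) with 1 point per library. Mpo is at rank 4 with 1916 to 2049.9 RPKM, the chaperone gene Calr is next with 1635 to 1752, and Car2 of the erythroid list has 760.0 to 829.8.

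Receptor and barrier genes of other tissues mostly stood at the lowest value in all 3 libraries. Of 1115 olfactory receptor genes 1056 (94.7%) stood there, as did 313 of 328 vomeronasal receptor genes, 41 of 50 keratin genes and 42 of 42 beta-defensin genes, against 39.2% of all features. Krt18, a keratin of simple epithelia, was the only keratin gene at 1 RPKM in all 3 libraries, with 9.10, 9.42 and 9.33. Long non-coding RNAs stood at the lowest value at 4113 of 7189 (57.2%), and 550 reached 1 RPKM in all 3 libraries. Xist, the RNA of the inactive X chromosome (chrX:103460366-103483254, minus strand), measured 169.6, 163 and 179, while the Y-linked genes Ddx3y and Kdm5d stood at the lowest value. The other Y-linked genes listed, Eif2s3y and Uty, were above the lowest value in at least 1 library but did not reach 1 RPKM in all 3. Tsix, which overlaps Xist on the other strand, measured 0.457, 0.783 and 0.703, and the sources used here do not say whether counting used strand.

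Promoter sequences of RefSeq (GRCm38.p6) were matched to 15936 protein-coding genes, taking the 250 bases before the start. Levels were set beside the CpG content of these windows, since promoters rich in CpG are typical of broadly used genes. The ratio of observed to expected CpG had a median of 0.784 in genes at 10 RPKM or more in all 3 libraries, 0.667 in the other genes at 1 RPKM or more, 0.410 in genes between, and 0.188 in genes at the lowest value. A ratio of at least 0.6 was found in 76.8%, 58.6%, 32.3% and 11.95% of these genes in the same order. The letters TATAAA, of the TATA box, showed the reverse order, in 5.39%, 6.67%, 11.2% and 24.4%. The GATA letters given below did so too, from 5.55% to 14.9% of windows between the highest and the lowest class, as did those of C/EBP (7.24% to 11.9%), RUNX (10.4% to 13.8%) and MYB (32.3% to 41.7%). The PU.1 letters did not, at 22.1%, 22.6%, 24.0% and 21.1% from the highest to the lowest class. The median GC content fell along the same classes from 60.4% to 45.6%, and its part in these shares was not tested. The classes share genes of many functions, and these values are a description.

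**Figure D4:**
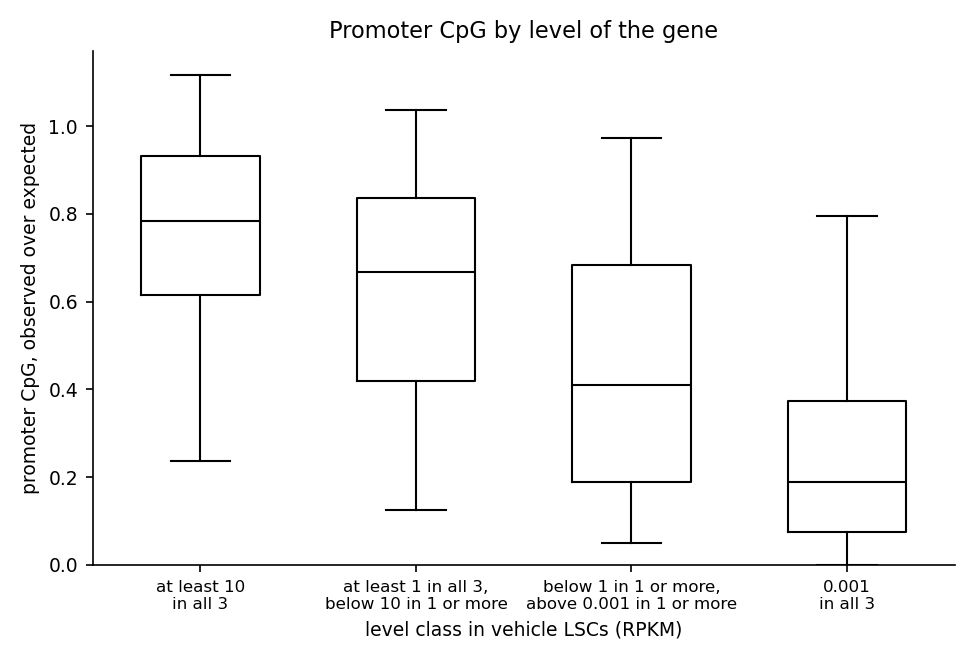
Boxes give the median and quartiles, and whiskers the 5th and 95th percentiles, of the observed over expected CpG ratio in 250 bases before the start (y axis) in 4 classes of level in RPKM (x axis). Medians fall from 0.784 in the class at 10 RPKM or more to 0.188 in the class at the lowest value.

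Lineage lists departed from that order, since promoters of granulocyte and monocyte progenitor genes and of erythroid genes, whose listed members were all expressed, had median ratios of 0.338 and 0.327. In stem cell genes the median was 0.591, and 46.9% of promoters reached 0.6. The sequences below are shown because they set windows of the markers Kit and Meis1 beside CpG-poor windows of highly expressed lineage genes and of a T cell gene that was not detected. They run 5′ to 3′ and stop before the first exon in GENCODE M21. Capitals mark matches on either strand to the letters AGATAA for GATA factors, to GAGGAA for PU.1 and related factors, to TGTGGT for RUNX factors, to TTGCNNAA for C/EBP factors, to AACTG for MYB and to TATAAA for the TATA box. In all matched promoters these letters occur in 9.01%, 22.3%, 12.1%, 9.11%, 36.4% and 12.1% of windows.
Kit: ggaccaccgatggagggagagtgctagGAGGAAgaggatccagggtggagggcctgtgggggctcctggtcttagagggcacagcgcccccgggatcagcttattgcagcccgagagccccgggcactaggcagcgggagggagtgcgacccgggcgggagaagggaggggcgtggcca
Meis1: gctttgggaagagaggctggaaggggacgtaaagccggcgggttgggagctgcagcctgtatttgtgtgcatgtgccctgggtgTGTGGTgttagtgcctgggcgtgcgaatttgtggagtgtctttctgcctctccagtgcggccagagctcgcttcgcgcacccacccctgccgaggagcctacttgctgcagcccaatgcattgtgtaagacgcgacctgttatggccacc
Mpo: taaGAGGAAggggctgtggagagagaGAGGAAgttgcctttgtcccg
Cpa3: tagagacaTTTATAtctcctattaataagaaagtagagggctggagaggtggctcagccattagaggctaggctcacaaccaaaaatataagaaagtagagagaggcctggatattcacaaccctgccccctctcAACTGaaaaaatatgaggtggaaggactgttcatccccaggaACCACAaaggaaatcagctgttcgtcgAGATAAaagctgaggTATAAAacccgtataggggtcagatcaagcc
Klf1: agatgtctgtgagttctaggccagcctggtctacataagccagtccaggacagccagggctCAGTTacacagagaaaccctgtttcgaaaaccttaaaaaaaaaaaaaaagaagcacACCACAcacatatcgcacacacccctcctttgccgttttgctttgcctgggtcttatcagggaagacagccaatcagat
Cd3e: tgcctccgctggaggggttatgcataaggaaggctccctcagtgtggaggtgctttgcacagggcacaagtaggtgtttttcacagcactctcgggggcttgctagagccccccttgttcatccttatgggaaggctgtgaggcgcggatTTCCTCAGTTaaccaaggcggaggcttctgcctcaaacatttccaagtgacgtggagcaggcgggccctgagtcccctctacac
They lie at chr5:75574737-75574915 (plus strand) for Kit, chr11:19018986-19019219 (minus) for Meis1, chr11:87793534-87793580 (plus) for Mpo, chr3:20242182-20242431 (minus) for Cpa3, chr8:84901732-84901927 (plus) for Klf1 and chr9:45009628-45009861 (minus) for Cd3e. The ratio over the full 250 bases was 0.601 for Kit and 0.595 for Meis1, at about the threshold and below the lower quartile of the highest class (0.615), against 0.0913 for Mpo, 0.245 for Cpa3, 0.202 for Klf1 and 0.344 for Cd3e. The Mpo stretch has only 47 bases, since GENCODE starts this gene upstream of the RefSeq start, and it holds 2 matches to the PU.1 letters. The Cpa3 stretch holds a GATA match 46 bases and a TATA match 31 bases before the RefSeq start. In Cd3e a PU.1 and a MYB match overlap by 1 base in a single run of capitals. Such matches are letters in a window and not binding sites. The GATA letters were found in 8 of 28 erythroid, 8 of 27 mast cell and basophil, 7 of 24 late neutrophil and 3 of 24 megakaryocyte and platelet promoters. They were in 2 of 9 eosinophil and 0 of 21 granulocyte and monocyte progenitor promoters. The C/EBP letters were found in 8 of 24 late neutrophil, 7 of 27 mast cell and basophil and 4 of 21 granulocyte and monocyte progenitor promoters. They were also in 5 of 21 promoters of B lineage genes, a list with few expressed members, and in 3 of 9 eosinophil promoters.

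The other experiment of the series is in a table normalised separately with 26595 features and a lowest value of 0.003. From it, LSCs of WT CML mice (3 libraries) and naive WT LSK cells (2 libraries) are used here. It also holds LSCs and LSK cells of CD93-deficient mice, which are not used. The values of the WT libraries are set side by side without a test. Ly6a measured 0.799, 5.41 and 0.003 RPKM in the WT LSCs and 696 and 790.4 in the WT LSK cells, and Kit 0.221, 16.8 and 2.63 and 21.4 and 99.3. The vehicle LSCs lay above those WT LSCs and below the LSK cells for Ly6a, and above those WT LSCs for Kit. S100a8 measured 58652, 45367 and 35295 and 2787 and 946, and Elane 10255, 7545 and 10204 and 1043 and 1001. Each library of that experiment listed here was above every vehicle library for S100a8, Elane and Prtn3 (1085 and 666 RPKM in LSK cells). The other primary granule genes differed. In WT LSCs Mpo and Ctsg were above every vehicle library. In LSK cells Mpo, at 896 and 1609, was below every vehicle library, and Ctsg, at 411 and 271, lay on both sides of the vehicle libraries. Klf1 stood at the lowest value in the 3 WT LSC libraries and measured 43.4 and 26.4 in LSK cells, while Mki67 measured 72.1, 67.8 and 34.7 and 36.3 and 31.1. Features, depth and scaling differ between the tables, so how much of these differences is due to the cells cannot be told apart from the processing.

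**Figure D5:**
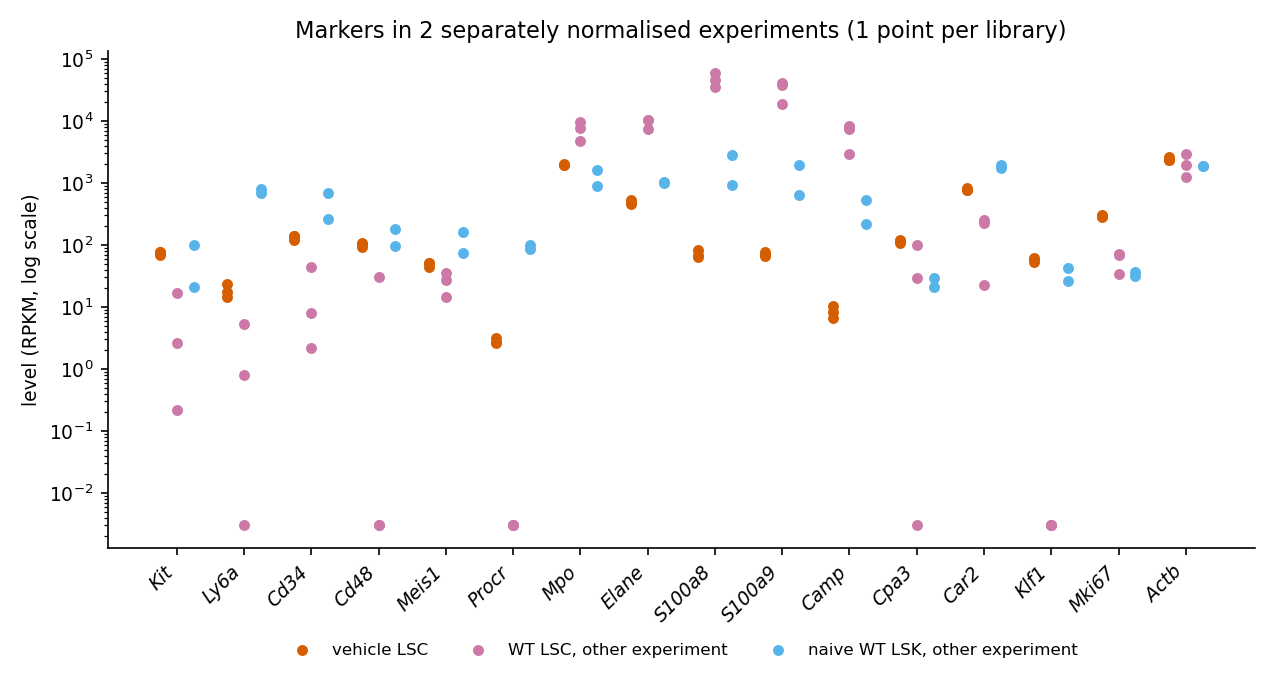
Levels of 16 genes (x axis) in RPKM on a log scale (y axis), 1 point per library, for the vehicle LSCs and for WT LSCs and naive WT LSK cells of the separately normalised experiment. The vehicle libraries cluster tightly, as for S100a8 at 63.2 to 83.6 RPKM, and the points at 0.003 are the lowest value of the other table.

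Over 13575 features with a mean of at least 1 RPKM the median SD of log2(RPKM + 1) was 0.131, and over 7435 protein-coding features with a mean of at least 10 RPKM it was 0.0954. The highest value was more than 2 times the lowest in 114 of 7947 features with a mean of at least 10 RPKM and in 25 of the 7435 protein-coding ones. Among the 13575 features 1062 did so, counting only features above the lowest value in every library. That count therefore leaves out features at the lowest value in a library, which the other counts include. Across genes, which are not independent replicates, log2 levels correlated between pairs of libraries with Pearson r of 0.973 to 0.974. In single-exon genes the median chi-square of a library pair was 3.30 (libraries 1 and 2), 1.63 (1 and 3) and 4.34 (2 and 3), where counting alone gives 0.455. Expected reads were set from the estimated depths alone, so a shift of a whole library also adds to these values. Lengths were those of GENCODE, and genes that are close copies were not left out. How much of the excess lies in single genes was not tested.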

How the data were processed

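Per the labels' protocols, libraries were made from total RNA of sorted LSCs by SMART-Seq v4 amplification. The deposited values are taken as RPKM, which the authors do not name and which was inferred from the values. Reads were mapped to GRCm38, also called mm10, per the submitters' processing notes; how reads were aligned and counted, against which gene models, and whether reads or fragments were counted is not given in the sources used here. No counts were available, so no count model was used and no test between groups was made, as there is 1 group.

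The members and the 23 gene lists were chosen with earlier results of these data known. Of the list entries 756 were matched by symbol, 13 by mitochondrial name and 3 by synonym, and 5 were not listed. Genes were named by rule: the 25 most abundant features, up to 8 highest and 8 lowest members of each list, all sorting markers, the widest features, and members whose role needed a value. A few genes that this rule names are not reported here. Shares are percent of the column total (839236, 875750 and 828690). 27 names turned into dates were kept as they stand.

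Depth was estimated as the smallest number of reads at which microRNA values became whole within 0.05 reads. The first version of this estimator averaged a depth with its multiples on simulated data and was corrected; the values for these libraries did not change. In 5 simulated libraries of 200 values it was off by at most 0.431%. Python 3.11.15 was used with pandas 2.3.3, scipy 1.17.1 and matplotlib 3.10.9. Alternatives were other scalings, thresholds, pseudocounts and leaving out each library.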

Additional observations from a re-analysis of the deposited data

How the results depend on the processing

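The counts of expressed features (12545, from 9291 at 5 RPKM to 16135 at 0.1 RPKM), of expressed list genes (486, from 381 to 560) and of features at the lowest value (14481, up to 17442 when 2 of 3 libraries sufficed) stayed within 1.5 times under each alternative run. With the 37 mitochondrially encoded features taken out and columns rescaled to 1000000, the share of the 10 most abundant features was 16.03% in place of 26.7%, that of ribosomal protein genes 5.62% in place of 4.67%, that of S100a8 with S100a9 0.0203% in place of 0.0169%, and that of the 4 azurophil genes 0.440% in place of 0.366%. The median level of all list genes, 11.7 RPKM, was 14.96 under that scaling, 13.7 with columns rescaled to 1000000 and 19.8 over members at 1 RPKM in at least 1 library. The median SD of log2, 0.131, was 0.144 with a pseudocount of 0.1, 0.0532 without a filter, 0.145 without mitochondrial features and 0.102 to 0.111 when a library was left out, which leaves 2. Of 23 lists, 6 changed their number of expressed genes by more than 1.5 times at 5 RPKM and 6 at 0.1 RPKM, mostly lists with low medians. The median of eosinophil genes was 0.658 without library 2, against 1.03 RPKM. No paired analysis was possible because the values describe 1 group and come from no test. Depth limits genes under about 0.2 RPKM and microRNA features of few reads.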

Other observations

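The features with the widest range among those with a mean of at least 10 RPKM were short RNAs. Rnu3b1, a U3 small nucleolar RNA gene, measured 0.001, 0.001 and 144 RPKM, Mir24-2 7.11, 0.001 and 55.04, Mir6951 48.4, 0.001 and 0.001 and Mir6541 18.6, 0.001 and 40.4. The others by this rule were Mir7021, Mir32, Mir7026, Mir7068, Mir3075 and Mir721, each at the lowest value in at least 1 library.

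A few protein-coding genes, chosen after their values were seen, differed between libraries far more than the rest. Cox20, an assembly factor of cytochrome oxidase, measured 0.001, 17.1 and 15.9 RPKM, Rbm4b, an RNA-binding protein, 38.2, 6.88 and 37.1, and Rpl22, a ribosomal protein, 931, 236 and 597. Strbp measured 38.5, 14.9 and 13.1. The cause was not tested.

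Gapdh and Pgk1, glycolytic enzymes often used as references, measured 26.9, 32.3 and 26.6 and 17.9, 20.4 and 18.8 RPKM, far below Actb at 2389, 2607 and 2357. Both genes have many processed copies in the mouse genome, and how the counting treated reads that match several places is not given in the sources used here.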
